A study of Homo sapiens with 6 samples.

Results

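Molecular chaperones and their partners were followed in LoVo, an established human cell line from a colon adenocarcinoma, with and without SHARPIN. They comprise the heat shock protein families HSPA (HSP70), HSPH and HSPA4 (HSP110), HSP90, HSPD and HSPE (HSP60 and HSP10) and HSPB (small heat shock proteins), the J-proteins (DNAJA, DNAJB and DNAJC), the BAG proteins, the HSP90 partners FKBP4, FKBP5 and STIP1, and the factors HSF1 and HSF2. Members were taken by a gene symbol pattern, chosen with earlier results of these data known, and 86 of the 22496 symbols in the 6 libraries matched. Of these, 67 stood at 1 FPKM or more in at least 3 libraries and were tested, among 13092 genes tested in all, and 64 of the 67 stood at 1 FPKM or more in every library. FPKM, the deposited unit, is the number of fragments scaled by transcript length and by the mapped fragments of the library. The symbol pattern also took in HSPB11 and HSPBAP1, which are not small heat shock proteins, and HSPBP1, a nucleotide exchange factor for HSP70.

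The samples are poly-A RNA libraries, of which 3 carry the label non-target and serve as controls and 3 the label SHARPIN knockout, with no treatment, time course or other allele named in the labels. SHARPIN belongs to LUBAC, the complex that builds linear ubiquitin chains. The labels do not say how the knockout was made, whether each genotype is 1 clone or a pool, or whether replicates are separate cultures, so the p-values here reflect only how far these libraries scatter, and that scatter may be technical.

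HSP70 proteins bind exposed hydrophobic stretches of unfolded proteins in cycles of ATP hydrolysis. J-proteins deliver substrates and trigger hydrolysis, and BAG proteins, HSP110 and HSPBP1 release the nucleotide. STIP1 (HOP) passes clients from HSP70 to HSP90, where immunophilins such as FKBP4 join late. Small heat shock proteins hold unfolding proteins without ATP, and HSP60 with HSP10 forms the folding chamber of mitochondria. HSF1 induces many of these genes when cytosolic proteins misfold, and carcinoma cells often keep them at a high level. Endoplasmic reticulum (ER) members such as HSPA5 and HSP90B1 are instead induced by the unfolded protein response.

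Depth, estimated from the smallest steps between low values, was 20800000 to 22600000 fragments per library, an estimate that rests on 55 to 78 of 509 to 581 low values. The sum of FPKM ran from 416852 to 431264 in 5 libraries and was 522919 in knockout replicate 3. SHARPIN transcript stood at 11.9, 13.9 and 12.9 FPKM in non-target replicates 1 to 3 and at 7.55, 11.9 and 18.0 in knockout replicates 1 to 3 (limma, adjusted p = 0.827), so its level does not check the labels. Of 10 colon epithelial markers, 8 stood at 1 FPKM or more in every library, with a summed level of 4101 to 5241 FPKM in non-target and 4806 to 9655 in knockout. Of the 10, 1 rose, KRT19, and 4 fell, CDX1, VIL1, CDH17 and LGALS4, where 6.26% of all genes tested rose and 5.93% fell. CDX1 and VIL1 were the markers below 1 FPKM, in knockout. Of 18 markers of other cell types, 1 (ACTA2) stood at 1 FPKM or more in every library, and CD3E was listed at or taken as 0 in all. Their summed level was 9.43 to 27.9 FPKM in non-target and 5.58 to 8.02 in knockout, and the fibroblast collagens COL1A1 and COL1A2 stood at 6.60 and 6.12 FPKM in non-target replicate 1 against at most 0.290 in the other 5 libraries. The part of these differences in the results below was not tested. Fewer cells of a type and less RNA per cell cannot be told apart in bulk RNA.

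Non-target replicates 2 and 3 were the closest libraries. The Pearson correlation across genes of log2(FPKM + 1) was 0.997 for this pair and 0.946 to 0.980 for the other 5 pairs of 1 genotype. In genes of 1 annotated transcript the pair's squared differences averaged 1.60 times what counting alone gives, against 9.34 or more for the others. In each genotype replicate 1 correlated less with the other libraries (0.946 to 0.975) than these did with each other (0.997 in non-target and 0.980 in knockout).

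A few constitutive chaperones made up most of the chaperone transcript in LoVo. The cytosolic HSP70 HSPA8 was the most abundant, with a mean over 6 libraries of 840 FPKM, followed by the constitutive HSP90 HSP90AB1 (678 FPKM), the HSP60 gene HSPD1 (583 FPKM), the ER HSP90 HSP90B1 (320.1 FPKM) and the mitochondrial HSP70 HSPA9 (238 FPKM). These 5 genes held 57.7% to 68.5% of the members' summed FPKM in each library. All 86 members together summed to 4079, 4374 and 4331 FPKM in the non-target libraries and to 4163, 4391 and 4810.5 FPKM in the knockout libraries. As a share of each library's FPKM this was 0.966% to 1.04% in non-target and 0.920% to 1.05% in knockout, and the ranges overlapped. Of the tested members, 8 had a mean of 100 FPKM or more, 32 lay between 10 and 100 FPKM, and 27 were below 10 FPKM.

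**Figure D1:**
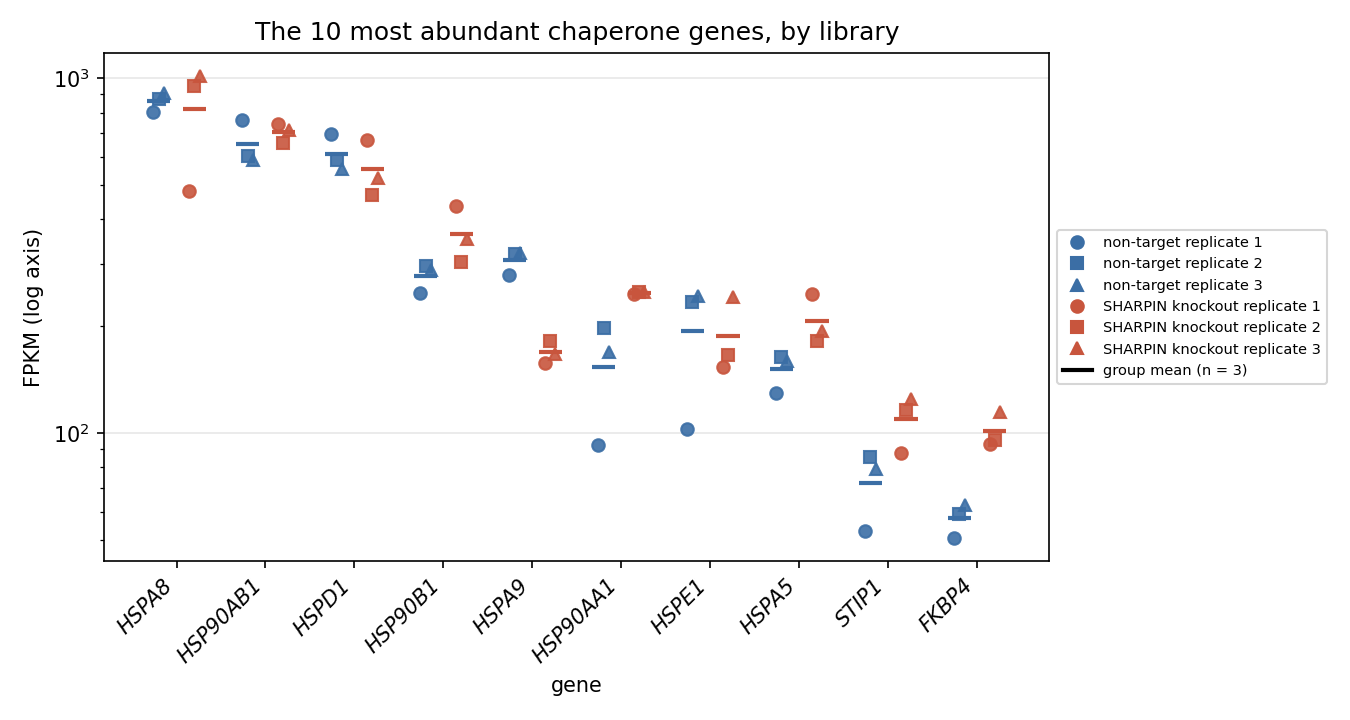
FPKM on a log axis of the 10 chaperone genes with the highest mean, for 3 non-target (blue) and 3 SHARPIN knockout libraries (red); symbols give the replicate and bars the group mean. HSPA9 is lower and FKBP4 higher in all knockout libraries, while HSPA8, HSP90AB1, HSPD1 and HSPE1 overlap between genotypes, and HSPA8 in knockout replicate 1 (482 FPKM) lies below the other 5 libraries.

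In the libraries labelled knockout, 8 of the 67 tested chaperone genes rose and 4 fell (limma, Benjamini-Hochberg adjusted p under 0.05). Over all 13092 genes 6.26% rose and 5.93% fell. The members that rose were HSPB3, HSPB11, HSPA12A, DNAJB1, FKBP4, DNAJB2, DNAJC1 and BAG3, and those that fell were DNAJC15, HSPB1, DNAJC22 and HSPA9. The share that fell, 5.97%, lay near that of all genes, and the share that rose was 11.9%. The members' median log2 fold change was -0.02, beside 0.02 for all genes tested, and 33 members were higher and 34 lower. Log2 fold changes are differences of mean log2(FPKM + 1), knockout minus non-target, and the added 1 understates the change of low genes. The groups did not overlap in 17 members that were higher and 8 that were lower in knockout, or 37.3% of the 67. Over all genes tested 16.5% were higher and 15.7% lower without overlap, 32.1% in all.

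The count that rose depended on the design. With the replicate number as a block, 15 members rose and 5 fell, beside 13.5% and 11.8% of all genes (25.3% in either direction). The 7 gained increases were DNAJB6, HSP90AA1, HSF1, STIP1, HSPBP1, DNAJB4 and HSPA1B, and the gained decrease was DNAJC13. Without non-target replicate 2 or 3, 3 and 4 members rose, and without knockout replicate 2 or 3, 4 rose in each case. Over all 13092 genes the number that rose went from 820 to 420, 411, 505 and 616 in these settings. With non-target replicates 2 and 3 counted as 1 sample, an alternative added after seeing the data, 3 members and 416 of all genes rose, and BAG3, DNAJB1, DNAJB2, DNAJC1, HSPA12A and HSPA9 missed the threshold.

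**Figure D2:**
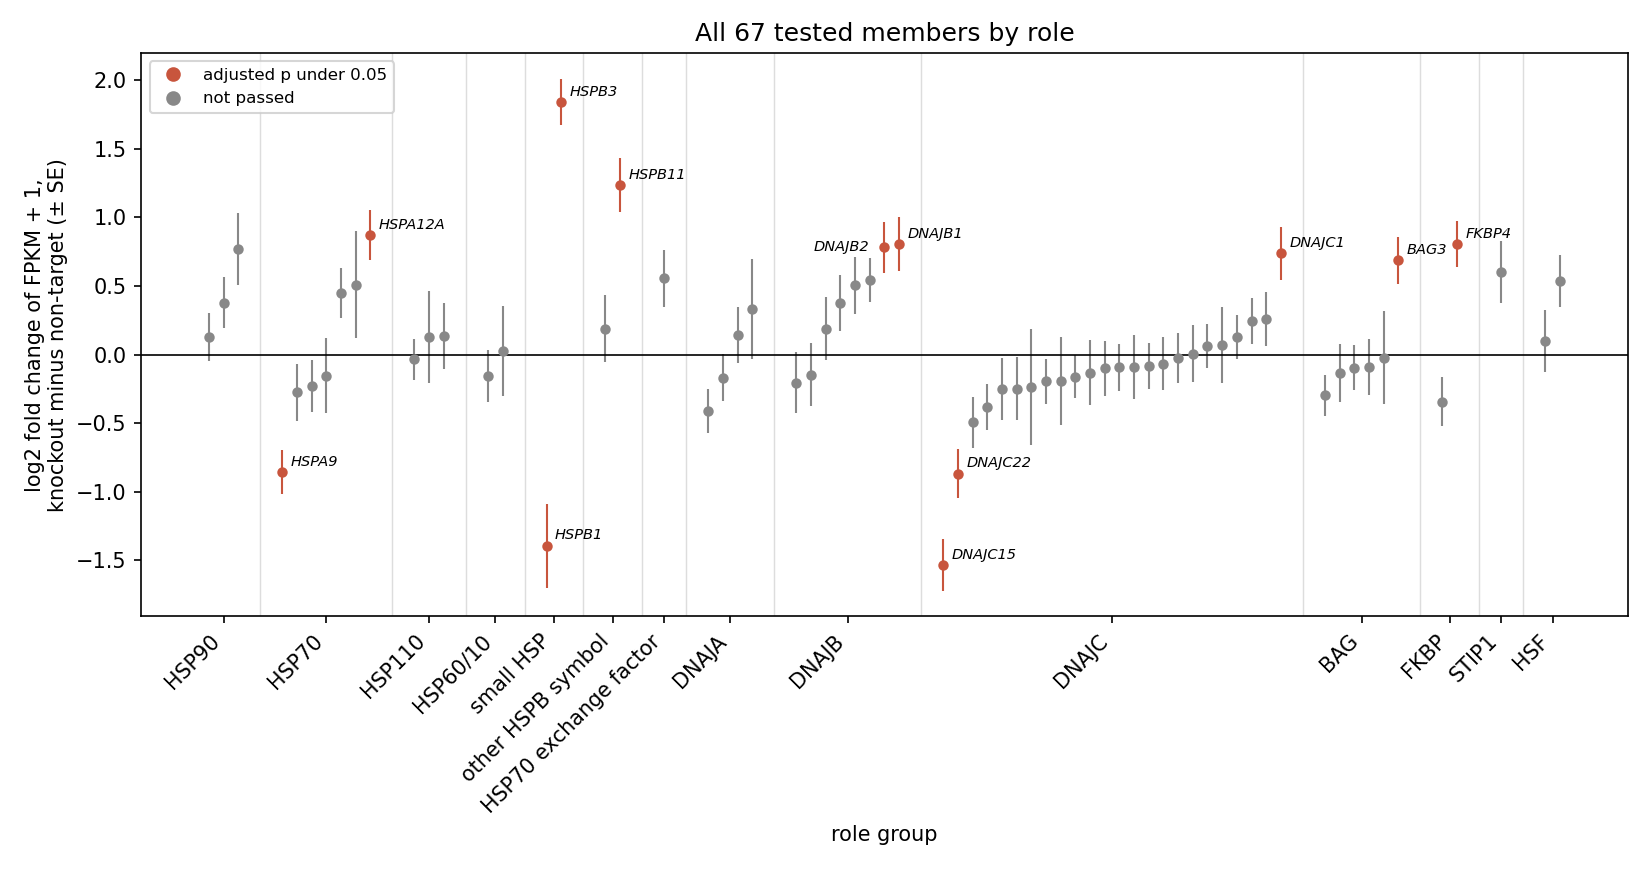
Log2 fold change of FPKM + 1 (knockout minus non-target, ± SE, n = 3 per genotype) of the 67 tested members by role, with those past the test in red. HSPB3 has the highest and DNAJC15 the lowest value. Of the 24 DNAJC genes 17 lie below 0, of which 2 passed the test, and 6287 of all 13092 genes tested lie below 0.

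The 2 tested small heat shock proteins changed in opposite directions. HSPB1 (HSP27), the main small heat shock protein of epithelial cells, stood at 67.5, 103 and 107 FPKM in non-target and at 53.2, 22.2 and 32.8 FPKM in knockout, in the order of the replicate numbers here and below. All knockout libraries lay below all non-target ones, with replicate 1 of both genotypes closest together. The log2 fold change was -1.39 ± 0.31 (SE; adjusted p = 0.0159). Without knockout replicate 2 or 3 the adjusted p was 0.0697 and 0.0735, and with no filter on low values 0.0562. HSPB3, a small heat shock protein known from muscle, stood at 1.79, 1.48 and 1.66 FPKM in non-target and at 7.99, 7.87 and 9.60 FPKM in knockout. It was low in non-target and about equally raised in every knockout library, with a log2 fold change of 1.84 ± 0.17 (SE; adjusted p = 0.000147). Of the summed FPKM of the small heat shock proteins that the pattern matched, HSPB1 held 97.9% ± 0.716 in non-target and 78.8% ± 6.81 in knockout (SD, n = 3 each). The other 5 that it matched, HSPB2, HSPB6, HSPB7, HSPB8 and HSPB9, stayed at or below 0.181 FPKM in every library. CRYAA and CRYAB, small heat shock protein genes outside the pattern, are not in this sum. CRYAB stood at 0.344, 0.138 and 0.141 FPKM in non-target and at 0.863, 0.614 and 1.24 FPKM in knockout, and was too low to be tested.

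HSPB11 carries a small heat shock protein symbol but encodes IFT25, a subunit of the intraflagellar transport complex of cilia. It stood at 31.9, 21.2 and 25.8 FPKM in non-target and at 61.0, 54.7 and 72.9 FPKM in knockout. The lowest knockout library exceeded the highest non-target one, and the log2 fold change was 1.23 ± 0.20 (SE; adjusted p = 0.00282). HSPBAP1, which binds HSPB1 and is no heat shock protein itself, went from 2.64 ± 0.281 to 3.28 ± 1.29 FPKM (SD, n = 3) and did not pass (adjusted p = 0.689). HSPB3, HSPB11, DNAJC15 and DNAJC22 were the 4 called members whose call held in every other setting run.

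Promoter sequences of RefSeq (table build GRCh38.p14) were found for 73 of the 86 members, and those shown were placed by an exact match to GRCh37, the build of the files. The 250 bases before each start were searched on both strands, with N for any base, for the heat shock element (HSE) as 3 alternating units of GAA and TTC spaced by NN, which contains the 2-unit forms GAANNTTC and TTCNNGAA, and for the ER stress element (ERSE), which joins CCAAT and CCACG across a spacer. The 3-unit HSE stood in 3 members (4.11%), HSPA6, HSPA8 and DNAJB6, and in 0.439% of all 27305 promoters. GAANNTTC stood in 12 members (16.4%; 5.85% of all promoters) and TTCNNGAA in 6 (8.22%; 6.72% of all). The members with GAANNTTC include HSPA1A, its near-copy HSPA1B, and HSPA1L, whose annotated start lies close to that of HSPA1A on the opposite strand. Their matches are therefore not independent, and the share of 16.4% counts related sequence more than once. Of the 60 tested members with a promoter sequence, 6 held GAANNTTC and 4 held TTCNNGAA. The ERSE stood in HSPA5 and HSP90B1 (2.74%; 0.0806% of all promoters). Of the 8 members that rose, 6 had an entry. Among these 0 held the 3-unit form and 1, HSPB3, held a 2-unit form. Of the 4 that fell, 3 had an entry, and HSPB1 and DNAJC15 held a 2-unit form. DNAJC1, DNAJC22 and FKBP4 had no entry. A match describes letters in the window and does not show a site in use. Only exact matches in the first listed promoter of a gene were counted, so a gene without a match may still hold a heat shock element. The 3-unit form was also not found for the heat-inducible DNAJB1, BAG3, HSPH1, HSP90AA1 and HSPA1B. The sequences below are shown because they carry these matches or belong to the small heat shock proteins and the J-protein that changed most, with the match in capitals. Bases in annotated exons are left out, and where the match itself lies in an exon only 30 bases around it are printed.
HSPA6, chr1:161494080-161494329, plus strand: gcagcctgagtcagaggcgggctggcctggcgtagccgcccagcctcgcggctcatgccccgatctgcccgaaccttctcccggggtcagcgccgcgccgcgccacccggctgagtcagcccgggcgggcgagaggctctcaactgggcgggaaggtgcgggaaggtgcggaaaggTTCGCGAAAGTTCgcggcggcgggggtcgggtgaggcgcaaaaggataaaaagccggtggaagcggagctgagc
HSPA8, distal match, chr11:122933054-122933083, minus strand: ggcgagcttGAAAGTTCCAGAAcgctgcgg
HSPA8, proximal match, chr11:122932879-122932908, minus strand: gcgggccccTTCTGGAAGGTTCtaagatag
DNAJB6, chr7:157129468-157129659, plus strand: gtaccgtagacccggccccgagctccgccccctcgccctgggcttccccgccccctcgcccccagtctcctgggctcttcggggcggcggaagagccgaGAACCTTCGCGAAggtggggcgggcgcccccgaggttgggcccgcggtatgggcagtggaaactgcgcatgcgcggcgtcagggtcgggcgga
HSPB1, chr7:75931740-75931989, plus strand: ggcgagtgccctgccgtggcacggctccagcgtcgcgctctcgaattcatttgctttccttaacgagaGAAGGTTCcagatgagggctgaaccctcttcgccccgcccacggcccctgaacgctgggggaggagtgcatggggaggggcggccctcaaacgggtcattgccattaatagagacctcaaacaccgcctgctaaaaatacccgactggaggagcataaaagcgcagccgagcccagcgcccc
HSPB3, chr5:53751279-53751528, plus strand: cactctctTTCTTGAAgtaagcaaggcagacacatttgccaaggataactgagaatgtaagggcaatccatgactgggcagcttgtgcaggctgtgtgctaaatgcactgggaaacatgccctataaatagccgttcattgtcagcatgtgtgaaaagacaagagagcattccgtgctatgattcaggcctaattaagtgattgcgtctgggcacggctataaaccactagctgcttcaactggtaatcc
DNAJC15, chr13:43597521-43597550, plus strand: ctgtgagtgtgaTTCAAGAAcgtcccagtg
HSPA5, chr9:128003662-128003872, minus strand: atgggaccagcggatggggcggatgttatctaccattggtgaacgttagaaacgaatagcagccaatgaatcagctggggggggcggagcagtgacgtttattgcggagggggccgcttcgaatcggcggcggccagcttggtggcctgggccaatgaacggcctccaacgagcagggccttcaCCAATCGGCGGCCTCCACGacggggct
HSP90B1, distal match, chr12:104323988-104324017, plus strand: ccctgaCCAATCGGAAGGAGCCACGcttcg
HSP90B1, proximal match, chr12:104324093-104324122, plus strand: tgggtgCGTGGTGCGGCGCGATTGGtgggt
Counted from the start, the HSPA8 matches began at -230 and -55, that of HSPA6 at -74 and that of DNAJB6 at -131. The 2-unit matches of HSPB1 and HSPB3 began at -182 and -242.

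Of the mitochondrial chaperones, the HSP70 and 1 J-protein fell while HSP60 and HSP10 did not pass. HSPA9 (mortalin), the HSP70 that pulls imported proteins into the matrix (chromosome 5, 137889445 to 137911364, GRCh37), stood at 279, 319 and 322 FPKM in non-target and at 158, 182 and 167 FPKM in knockout. The genotypes were well separated, and the log2 fold change was -0.86 ± 0.16 (SE; adjusted p = 0.00700). Without non-target replicate 2 or 3 the change kept its size, at -0.83 and -0.82, and missed the threshold with adjusted p = 0.0508 and 0.0570. DNAJC15, a J-protein of the inner mitochondrial membrane (chromosome 13, 43597339 to 43688349), stood at 10.3, 13.6 and 14.0 FPKM in non-target and at 3.51, 3.17 and 4.45 FPKM in knockout. Every knockout library was under the lowest non-target one, and the log2 fold change was -1.53 ± 0.19 (SE; adjusted p = 0.000721). The promoter stretch of DNAJC15 printed above holds a 2-unit form and lies in an annotated exon.

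HSPD1 stood at 697, 587 and 555 FPKM in non-target and at 668, 469.7 and 524 FPKM in knockout (adjusted p = 0.670). HSPE1, its HSP10 partner, stood at 103, 234 and 244 FPKM in non-target and at 154, 166 and 241 FPKM in knockout (adjusted p = 0.974). The 2 genes lie next to each other on opposite strands of chromosome 2 and their annotated spans overlap. Use of strand in the counting is not given, and 27.3% of the 50-base stretches of the HSPE1 transcript also occur in transcripts of other genes, so their split is uncertain. HSPE1 held 12.8% of the pair's FPKM in non-target replicate 1, 18.7% in knockout replicate 1 and 26.1% to 31.5% in the other 4 libraries. The ratio thus followed the replicate number and not the genotype. The matrix J-protein DNAJA3 stood at 42.6 ± 2.62 FPKM in non-target and 38.0 ± 5.63 in knockout (SD, n = 3; adjusted p = 0.595). DNAJC19, a J-protein of the import motor, stood at 11.1 ± 0.698 and 10.7 ± 3.67 FPKM (adjusted p = 0.852).

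In the cytosolic HSP90 machine, FKBP4 rose, HSP90AA1 and STIP1 were higher in every knockout library without passing, and FKBP5 was lower on average. FKBP4 (FKBP52), the immunophilin that binds HSP90 in steroid receptor complexes, stood at 50.6, 59.2 and 62.4 FPKM in non-target and at 93.1, 95.5 and 114 FPKM in knockout. All 3 knockout libraries lay above all non-target ones, and the log2 fold change was 0.80 ± 0.17 (SE; adjusted p = 0.0125). Without non-target replicate 2 it was 0.83 (adjusted p = 0.0536). FKBP5 (FKBP51), which competes with FKBP4 on HSP90, stood at 4.96, 6.14 and 6.21 FPKM in non-target and at 3.85, 5.0 and 4.18 FPKM in knockout, with overlapping groups (log2 fold change -0.34 ± 0.18, SE; adjusted p = 0.265).

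HSP90AA1, the stress-inducible HSP90, stood at 92.4, 198 and 169 FPKM in non-target and at 246, 250.3 and 249 FPKM in knockout. The knockout libraries were nearly equal and lay above all non-target ones, among which replicate 1 was lowest. The log2 fold change of 0.77 ± 0.26 (SE) did not pass (adjusted p = 0.0952), but did with the replicate block (adjusted p = 0.000242) or without non-target replicate 2 (adjusted p = 0.0485). The constitutive HSP90AB1 stood at 764, 602 and 587 FPKM in non-target and at 744, 657 and 717 FPKM in knockout (adjusted p = 0.709). HSP90AA1 therefore held 10.8%, 24.7% and 22.3% of the pair's FPKM in non-target and 24.8%, 27.6% and 25.8% in knockout. The knockout shares lay just above the non-target ones, and 17.5% and 18.8% of the 50-base stretches of HSP90AA1 and HSP90AB1 also occur in transcripts of other genes, mostly their pseudogenes.

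STIP1, the HSP70 to HSP90 adaptor, stood at 52.9, 85.3 and 79.0 FPKM in non-target and at 87.8, 116 and 124 FPKM in knockout. The groups did not overlap, though the lowest knockout library was close to the highest non-target one (log2 fold change 0.60 ± 0.22, SE; adjusted p = 0.122, and 0.00403 with the replicate block). HSF1, the heat shock transcription factor, stood at 13.6, 16.6 and 17.5 FPKM in non-target and at 19.1, 23.2 and 28.7 FPKM in knockout. In each numbered pair of libraries the knockout was higher (log2 fold change 0.53 ± 0.19, SE; adjusted p = 0.110, 0.0109 with the replicate block and 0.0355 without knockout replicate 1). HSF2 stood at 6.11 ± 2.0 and 6.48 ± 1.17 FPKM (SD, n = 3; adjusted p = 0.839).

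Among J-proteins, 3 of 36 tested rose, 2 fell and 31 did not pass, where 6.26% of all genes rose and 5.93% fell. The class B genes DNAJB1 and DNAJB2 rose. DNAJB1 (HSP40), the heat-inducible partner of cytosolic HSP70 (chromosome 19, 14625581 to 14671203), stood at 29.9, 38.2 and 43.9 FPKM in non-target and at 54.7, 67.3 and 75.3 FPKM in knockout. The groups did not overlap (log2 fold change 0.81 ± 0.20, SE; adjusted p = 0.0269). The adjusted p was 0.0852 without non-target replicate 1, 0.0771 without non-target replicate 2, 0.0937 and 0.0816 without knockout replicates 2 and 3, and 0.0567 with no filter. DNAJB2, a J-protein with ubiquitin-interacting motifs, stood at 9.48, 7.43 and 7.64 FPKM in non-target and at 12.7, 13.8 and 18.1 FPKM in knockout. Its log2 fold change was 0.78 ± 0.19 (SE; adjusted p = 0.0234), and the adjusted p was 0.115 and 0.113 without non-target replicates 2 and 3 and 0.0661 and 0.0561 without knockout replicates 2 and 3.

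DNAJB6, which holds back aggregation of polyglutamine proteins and whose promoter carries the 3-unit HSE printed above, stood at 37.8, 33.1 and 31.1 FPKM in non-target and at 55.5, 47.4 and 47.2 FPKM in knockout. The groups were well apart, and it narrowly missed the threshold (log2 fold change 0.54 ± 0.16, SE; adjusted p = 0.0591, 0.00893 with the replicate block and 0.0387 without both replicate 1 libraries). DNAJB4 stood at 2.69, 2.39 and 2.34 FPKM in non-target and 5.34, 3.94 and 2.81 FPKM in knockout (adjusted p = 0.169, and 0.0453 with the replicate block). DNAJA1, the most abundant class A J-protein of the cytosol, stood at 39.9, 77.6 and 77.2 FPKM in non-target and at 44.2, 101 and 108 FPKM in knockout (adjusted p = 0.630). Its spread within a genotype exceeded the difference between genotypes. DNAJA4 went from 24.7 ± 3.12 to 18.2 ± 1.17 FPKM (SD, n = 3; adjusted p = 0.141, and 0.0467 after quantile normalization).

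Of the 24 tested DNAJC genes, 1 rose, 2 fell and 21 did not pass, a share called near the 12.2% of all genes, and the median log2 fold change was -0.10. DNAJC22, a transmembrane J-protein, stood at 21.3, 16.2 and 15.5 FPKM in non-target and at 8.69, 10.1 and 8.71 FPKM in knockout. It was lower in every knockout library (log2 fold change -0.87 ± 0.18, SE; adjusted p = 0.0106). DNAJC1, a J-protein of the ER membrane, stood at 13.4, 10.8 and 10.2 FPKM in non-target and at 16.4, 18.9 and 24.4 FPKM in knockout (log2 fold change 0.74 ± 0.19, SE; adjusted p = 0.0351). Its adjusted p was 0.138 and 0.165 without non-target replicates 2 and 3 0.0921 and 0.0846 without knockout replicates 2 and 3, and 0.0661 with no filter. DNAJC7, the most abundant DNAJC gene and a partner of both HSP70 and HSP90, stood at 34.9, 31.8 and 32.4 FPKM in non-target and at 19.1, 29.6 and 37.3 FPKM in knockout (adjusted p = 0.559). DNAJC13, which acts on clathrin-coated endosomes, went from 5.79 ± 0.551 to 3.86 ± 0.819 FPKM (SD, n = 3; adjusted p = 0.130, and 0.0496 with the replicate block). DNAJC14 went from 21.1 ± 1.03 to 16.1 ± 2.34 FPKM (adjusted p = 0.187), and shares 27.7% of its 50-base stretches with transcripts of other genes.

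**Figure D3:**
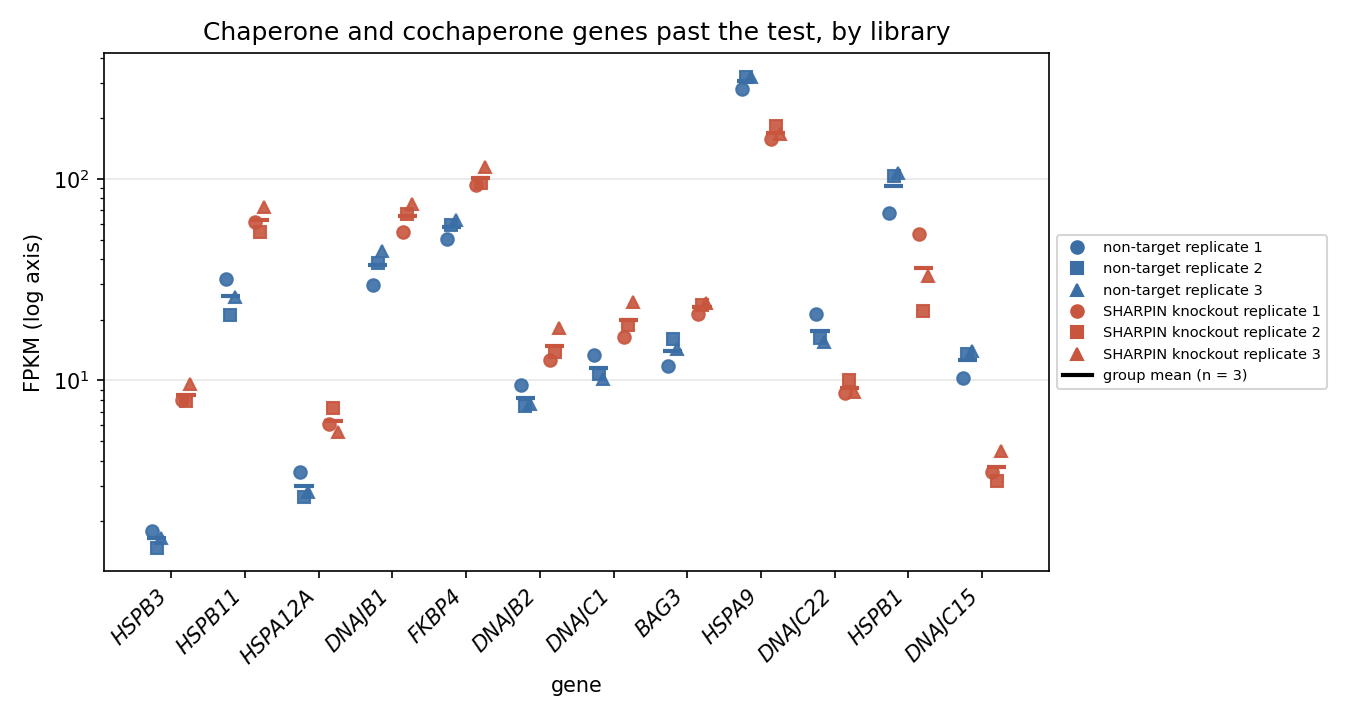
FPKM on a log axis of the 12 chaperone and cochaperone genes past the test, for 3 non-target (blue) and 3 SHARPIN knockout libraries (red); symbols give the replicate and bars the group mean. The groups do not overlap in any of the 12, nor in 32.1% of all genes tested. The 12 were chosen by the test on these same libraries, so the lack of overlap adds no support. The nearest libraries of the 2 genotypes lie close together for DNAJC1 (13.4 and 16.4 FPKM) and HSPB1 (67.5 and 53.2 FPKM).

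Of the 6 BAG genes, 1 rose and 5 did not pass, where 6.26% of all genes rose. BAG3, a heat-inducible exchange factor that joins HSP70 to small heat shock proteins for selective autophagy (chromosome 10, 121410892 to 121437331), stood at 11.8, 16.03 and 14.3 FPKM in non-target and at 21.3, 23.7 and 24.1 FPKM in knockout. The groups were separate (log2 fold change 0.69 ± 0.17, SE; adjusted p = 0.0265). BAG3 passed without knockout replicate 1, and its adjusted p was 0.0599 to 0.114 when any of the other 5 libraries was left out and 0.0633 with TPM scaling. Its small heat shock partner HSPB8 stayed at or below 0.181 FPKM. BAG1, BAG2, BAG4 and BAG5 had adjusted p of 0.976, 0.741, 0.836 and 0.770. HSPBP1, an exchange factor outside the BAG family, stood at 22.7, 26.3 and 25.4 FPKM in non-target and at 29.6, 34.0 and 49.6 FPKM in knockout (log2 fold change 0.55 ± 0.21, SE; adjusted p = 0.122, 0.00714 with the replicate block and 0.0426 without knockout replicate 1). The HSP110 exchange factor HSPA4 stood at 70.4 ± 3.47 and 68.7 ± 4.38 FPKM (SD, n = 3; adjusted p = 0.913).

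HSPA12A, a distant HSP70 relative, was the only HSP70 gene that rose, at 3.53, 2.65 and 2.80 FPKM in non-target and 6.04, 7.30 and 5.55 FPKM in knockout. The groups did not overlap (log2 fold change 0.87 ± 0.18, SE; adjusted p = 0.0120), and the adjusted p was 0.0780 and 0.0730 without non-target replicates 2 and 3. HSPA8 stood at 805, 877 and 910.5 FPKM in non-target and at 482, 954 and 1014 FPKM in knockout (adjusted p = 0.778). Knockout replicates 2 and 3 were the 2 highest libraries and knockout replicate 1 the lowest, and without that library the log2 fold change turned from -0.15 to 0.19 (adjusted p = 0.521).

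HSPA5 and HSP90B1, the main ER chaperones, were higher in each knockout library than in any non-target one but did not pass. HSPA5 (BiP), the ER HSP70, stood at 129.7, 164 and 159 FPKM in non-target and at 247, 181 and 193 FPKM in knockout (log2 fold change 0.45 ± 0.19, SE; adjusted p = 0.164, and 0.0525 with the replicate block). HSP90B1 (GRP94) stood at 248, 296 and 287 FPKM in non-target and at 435, 303 and 351 FPKM in knockout (log2 fold change 0.38 ± 0.19, SE; adjusted p = 0.245). In both the groups did not overlap, as in 32.1% of all genes tested, and knockout replicate 1 was the highest and non-target replicate 1 the lowest library. Both carry the ERSE printed above, and its part in these levels was not tested. Of 21 tested ER chaperone and unfolded protein response genes outside the symbol pattern, 15 were higher on average and 6 lower. Their median log2 fold change was 0.08, beside 0.02 for all genes tested. The ER J-protein DNAJB11, which serves HSPA5, stood at 22.4, 29.9 and 29.7 FPKM in non-target and at 28.5, 35.8 and 43.5 FPKM in knockout, with overlapping groups (adjusted p = 0.291). DNAJB9, a J-protein that the unfolded protein response induces, stood at 8.06 ± 2.12 and 9.23 ± 1.90 FPKM (SD, n = 3; adjusted p = 0.668).

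HSPH1, HSPA1B and HSPA6, which heat induces, were low in both replicate 1 libraries, and HSPH1 and HSPA6 were picked after their values were seen. Other inducible members, DNAJB1, BAG3 and HSP90AA1, were higher in knockout without overlap, as were 16.5% of all genes tested. HSPH1, HSPA1B and HSPA6 overlapped between genotypes, as did DNAJA1, HSPD1 and HSPE1, and HSPB1 was lower in knockout without overlap. In DNAJB1, BAG3 and HSP90AA1 too replicate 1 was the lowest library of each genotype. For HSP90AA1 in knockout it was nearly equal to the others, at 0.983 times the mean of replicates 2 and 3. HSPB1 in replicate 1 was 0.643 times that mean in non-target and 1.94 times in knockout. The exchange factor HSPH1 (HSP105) stood at 7.34 FPKM in non-target replicate 1 and 8.87 FPKM in knockout replicate 1, and at 16.5 to 18.3 FPKM in the other 4 libraries. The inducible HSP70 HSPA1B stood at 1.52 and 2.05 FPKM in the replicate 1 libraries, at 4.22 and 3.66 FPKM in the other non-target libraries, and at 6.01 and 7.26 FPKM in knockout replicates 2 and 3. HSPA1B did not pass (log2 fold change 0.51 ± 0.39, SE; adjusted p = 0.469), but did with the replicate block (adjusted p = 0.0431) and without both replicate 1 libraries (adjusted p = 0.0432). HSPA6, a strictly inducible HSP70 with the 3-unit HSE printed above, was listed at 0.0950, 0.504 and 0.475 FPKM in non-target and at 0.0770, 3.46 and 3.60 FPKM in knockout, and reached 1 FPKM in too few libraries to be tested. It was thus low in both replicate 1 libraries and highest in knockout replicates 2 and 3.

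Of the 67 tested members, 31 (46.3%) had replicate 1 as the lowest library in both genotypes and 12 (17.9%) as the highest. Over all genes tested these shares were 24.9% and 24.4%. DNAJA1 in replicate 1 was 0.516 times the mean of replicates 2 and 3 in non-target and 0.424 times in knockout, and HSPH1 0.444 and 0.508 times. HSPA1B was 0.386 and 0.309 times, and DNAJC30, a mitochondrial J-protein, 0.698 and 0.211 times. HSP90AB1 and HSPD1 went the other way, at 1.28 and 1.08 times and at 1.22 and 1.34 times. What sets the replicate 1 libraries apart was not tested. Without both of them, an alternative added after seeing the data, 10 members rose and 4 fell, while over all 13092 genes 1329 rose and 951 fell.

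**Figure D4:**
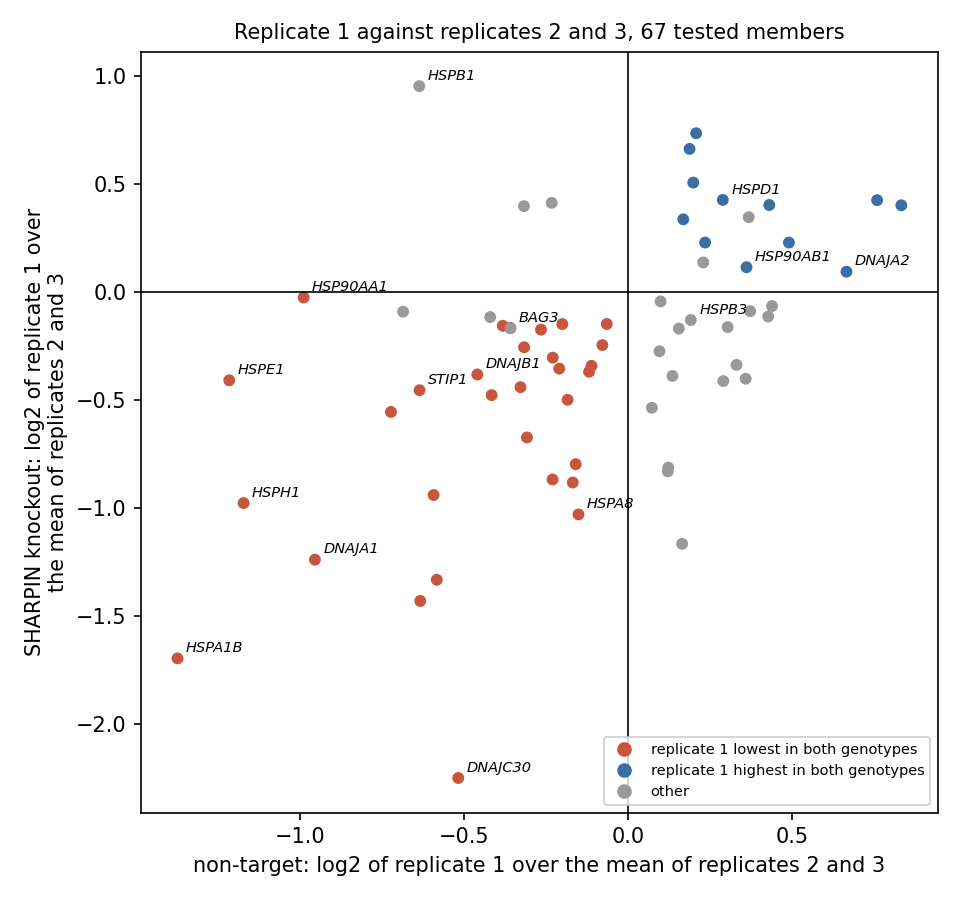
Log2 ratio of replicate 1 to the mean of replicates 2 and 3 for the 67 tested members, in non-target (x axis) and SHARPIN knockout libraries (y axis); red points are lowest and blue points highest in replicate 1 in both genotypes. The 31 red points include HSPA1B, HSPH1, DNAJA1 and HSPE1, and the 12 blue points include HSP90AB1 and HSPD1.

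Of 77 tested protein folding and stress genes outside the symbol pattern, 3 rose, 2 fell and 72 did not pass, where 6.26% of all genes rose and 5.93% fell. With the replicate block 6 rose and 4 fell, beside 13.5% and 11.8% of all genes. The 14 TRiC chaperonin and prefoldin subunits gave 0 calls and 0 at an unadjusted p under 0.05 (limma), as did the 18 HSP70 and HSP90 cochaperones outside the pattern. All 18 cochaperones were higher on average in knockout, as were 6805 of the 13092 genes tested. The median log2 fold change of the 18 was 0.20, beside 0.02 over all genes tested. With TPM scaling the median of all genes was -0.06, and that of these 18 was not computed. Among them the HSP90 activator AHSA1 stood at 55.3, 76.7 and 76.8 FPKM in non-target and at 73.6, 90.6 and 115 FPKM in knockout (adjusted p = 0.275). The prefoldin subunit VBP1 went from 14.8 to 11.3 FPKM on average (adjusted p = 0.234). Of 13 mitochondrial chaperones and proteases, 0 passed and 1 had an unadjusted p under 0.05 (limma). That gene was GRPEL2, an exchange factor of HSPA9, at 17.5, 14.9 and 14.6 FPKM in non-target and 12.3, 10.6 and 9.58 FPKM in knockout (log2 fold change -0.50 ± 0.17, SE; adjusted p = 0.0876, 0.0233 with the replicate block and 0.0372 without knockout replicate 1). Its groups did not overlap, and the direction was that of HSPA9. The related GRPEL1 stood at 24.7 ± 2.37 FPKM in non-target and 24.5 ± 3.91 in knockout (SD, n = 3, limma adjusted p = 0.953).

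Of 21 ER chaperone and unfolded protein response genes, 2 rose and 1 fell, where 6.26% of all genes rose and 5.93% fell. With the replicate block 5 rose and 1 fell, beside 13.5% and 11.8% of all genes. The lectin chaperones calreticulin and calnexin went in opposite directions. CALR, calreticulin, stood at 146, 267 and 254 FPKM in non-target and at 355, 408 and 519.7 FPKM in knockout (log2 fold change 0.97 ± 0.26, SE; adjusted p = 0.0367). CANX, calnexin, stood at 159, 191 and 186 FPKM in non-target and at 109, 128 and 97.8 FPKM in knockout (log2 fold change -0.68 ± 0.17, SE; adjusted p = 0.0319). The groups of each gene were separate. CALR lost the call without non-target replicate 1 (adjusted p = 0.0915) or knockout replicate 2 (0.106) or 3 (0.119), with no filter (0.0863) and after quantile normalization (0.0538), and CANX without non-target replicate 2 (0.167) or 3 (0.166) or knockout replicate 1 (0.0553) or 3 (0.0627) or without both replicate 1 libraries (0.0520). SERPINH1 (HSP47), the collagen chaperone, stood at 31.9, 44.7 and 44.8 FPKM in non-target and at 58.5, 64.8 and 75.9 FPKM in knockout (adjusted p = 0.0405), while non-target replicate 1, its lowest library, held the most COL1A1 and COL1A2. SERPINH1 passed without knockout replicate 1, and its adjusted p was 0.0834 to 0.112 when any of the other 5 libraries was left out, 0.0713 with no filter, 0.0515 with median-ratio scaling and 0.0641 after quantile normalization.

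Of 9 tested heat-induced or small heat shock related genes, 1 fell and 8 did not pass, where 5.93% of all genes fell. With the replicate block 2 fell, beside 11.8% of all genes. The gained one was HMOX1, a heme oxygenase, whose log2 fold change of -0.51 ± 0.33 (SE) had an adjusted p of 0.390 without the block and 0.0262 with it. RGS2, a regulator of G-protein signalling, stood at 5.46, 11.2 and 11.4 FPKM in non-target and at 2.01, 3.19 and 2.88 FPKM in knockout (log2 fold change -1.44 ± 0.27, SE; adjusted p = 0.00730). Of 7 receptors that HSP90 holds as clients, 2 were tested. The aryl hydrocarbon receptor AHR rose from 38.4, 23.8 and 24.3 FPKM to 78.6, 89.0 and 45.7 FPKM (log2 fold change 1.25 ± 0.28, SE; adjusted p = 0.0166, 0.0872 without knockout replicate 2, 0.0552 with no filter, 0.0503 with TPM scaling and 0.0538 after quantile normalization). The glucocorticoid receptor NR3C1 was lower in every knockout library and did not pass, at 5.89, 5.11 and 4.70 FPKM in non-target and 3.71, 4.62 and 2.99 FPKM in knockout (log2 fold change -0.39 ± 0.19, SE; adjusted p = 0.230).

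The 19 untested members were low or absent from the lists. In 17 no library reached 1 FPKM, and HSPA6 and DNAJB5 did so in 1 or 2 libraries. They include the pseudogenes HSP90AB4P, HSP90B2P and HSPA7 and the tissue-restricted HSPB2, HSPB6 and HSPB7. HSPA1A stood at or below 0.0790 FPKM in every library while its near-copy HSPA1B reached 7.26 FPKM. Of the 50-base stretches of the HSPA1A and HSPA1B transcripts, 75.1% and 73.6% also occur in other genes' transcripts, mostly each other's, and how shared fragments were assigned is not given, so their split and their levels are uncertain. HSPA6 shares 45.8% of its stretches, all with HSPA7. BAG6, which lies in the same region of chromosome 6 (31606805 to 31620482) as the HSPA1 genes, stood at 1.28, 1.63 and 1.70 FPKM in non-target and at 0.984, 1.14 and 1.05 FPKM in knockout (log2 fold change -0.30 ± 0.15, SE; adjusted p = 0.249), and how fragments of this region were assigned is not given, so its level is uncertain too.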

How the data were processed

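FPKM per gene symbol were deposited by the authors as 1 file per library. Per the series' design text and the submitters' processing notes, adaptors and low-quality reads were removed, TopHat2 2.1.1 placed the reads on hg19 using the UCSC annotation, and STAR 2.7.10b gave the FPKM. Handling of strand and of shared fragments was not given in the sources used here. Values depend on the library's total, so a change in other genes can move them.

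Symbols missing from a file were set to 0. Genes at 1 FPKM or more in at least 3 of 6 libraries (13092) were fitted with limma 3.58.1 in R 4.3.3 (intensity trend, robust empirical Bayes) on log2(FPKM + 1), two-sided, with Benjamini-Hochberg adjustment over all genes tested and a threshold of 0.05. The script was tested on simulated data. Annotation was GENCODE on GRCh37, where 86 members matched by symbol or synonym. Sequences are from RefSeq. Shared stretches are 50-base words of each member's longest GENCODE transcript found in transcripts of other genes.

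Members and lists were chosen with earlier results of these data known. Named are all members past the threshold, the next by p up to 24, the most abundant of each role, set abundant and inducible members, and up to 3 genes per list. Others named, such as HSPH1 and HSPA6, were chosen after their values were seen.

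Groups share replicate numbers, and the labels do not say what a number marks. Deviations from group means correlated across genes at 0.547, 0.309 and 0.331 between same-numbered libraries, so the numbers were taken to pair them. Crossed pairs of replicates 2 and 3 gave 0.320 and 0.321, so only replicate 1 is told apart. With the block 2 residual degrees of freedom remain, and 86.4% of genes take their spread wholly from genes of similar level. Depth is an estimate from value steps, whole fragments could not be recovered, and no counting interval is given.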

Additional observations from a re-analysis of the deposited data

How the results depend on the processing

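Settings tried were a smaller pseudocount (0.1 or 0.5), the low-value filter dropped or set to a mean of 5 FPKM, other scalings (TPM, median ratio, quantile), limma with no trend, the replicate block and each library omitted. Omitting both replicate 1 libraries, or treating non-target replicates 2 and 3 as a single sample, was added after seeing the data. Fits with fewer libraries kept the genes tested with all 6. Of the 12 called members, 4 kept the call throughout, and of the 20 other named members tested 9 gained one in some setting. With the replicate block 15 members and 6 pathway genes rose and 4 pathway genes fell, and over all genes 1767 rose and 1542 fell; the block changed no call of a named member beyond those given with its value. With non-target replicates 2 and 3 as 1 sample 3 members rose, 1 pathway gene fell and 416 genes rose, and without both replicate 1 libraries 1329 genes rose. A mean of at least 5 FPKM left 519 genes that rose and 346 that fell, as fewer genes were tested. Pathway genes that rose numbered 1 with no filter and 0 after quantile normalization. Leaving out 1 library gave 3 to 10 members that rose and 3 to 4 that fell, a members' median of -0.05 to 0.14, 0 to 5 pathway genes that rose and 1 to 2 that fell, and 411 to 1041 genes that rose and 500 to 929 that fell. The causes were not tested. Among uncalled members, the log2 fold change of HSPE1 turned to -0.066 with TPM scaling and -0.10 after quantile normalization, and ran from -0.38 to 0.24 when 1 library was left out. Without both replicate 1 libraries it was -0.25, that of DNAJC7 0.049 and that of HSPA8 0.14. Leaving out 1 library moved DNAJC7 from -0.46 to 0.0091, HSPA8 from -0.35 to 0.19, and HSPA4 from -0.078 to 0.013.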
